A study of Homo sapiens with 6 samples.

Results

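ChIP-seq peaks at 10 genes of the BCL2 family were examined, 5 anti-apoptotic (BCL2, MCL1, BCL2L1, BCL2A1 and BCL2L2) and 5 pro-apoptotic (BCL2L11, BAX, BAK1, BBC3 and PMAIP1). The genes were chosen by name as regulators of the mitochondrial step of cell death, out of 20162 protein-coding genes on GRCh37 and 19671 on GRCh38. For each gene, all listed peaks in the gene body with 20 kb on either side (its window) were taken. The cells were OCI-AML3, an established human acute myeloid leukemia (AML) line that carries mutant NPM1 (mtNPM1). The control cells were transfected with a guide RNA named sgNeg and the mtNPM1 knockout (KO) cells with sgNpm1A, which targets the mutant gene. Culture lasted 3 days per the labels and longer per the methods of the study. Each library came from a pool of transfected cells of this single line. Acetylated lysine 27 of histone H3 (H3K27Ac), a mark of active enhancers and promoters, and trimethylated lysine 4 (H3K4me3), a mark of active promoters, were each mapped in 1 library per guide RNA, which gave 4 peak lists. Another 2 input libraries were not analysed here. With 1 library per group there was no spread between replicates and no test between guide RNAs, so every difference below describes a pair of libraries.

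Proteins of the BCL2 family decide whether the outer membrane of mitochondria stays intact. BAX and BAK1 are the effectors that open it and release cytochrome c. BCL2, MCL1, BCL2L1 (BCL-xL), BCL2A1 (BFL-1) and BCL2L2 (BCL-w) hold them in check, and the BH3-only proteins BCL2L11 (BIM), BBC3 (PUMA) and PMAIP1 (NOXA) bind these guardians or the effectors and promote death. Myeloid leukemia cells often depend on BCL2 and MCL1, and BCL2 is the target of venetoclax, a drug used in AML.

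The H3K27Ac lists held 327715 peaks in sgNeg and 317059 in sgNpm1A, and the H3K4me3 lists held 353628 and 106641. Of these, 185 and 117 H3K27Ac peaks and 109 and 19 H3K4me3 peaks lay in the windows of the 10 genes. Both H3K27Ac lists are named with a tag of unstated meaning that differs from the tag on the H3K4me3 lists. Should the tag mean a different line, the H3K27Ac values below are not from OCI-AML3. Of 10 myeloid marker genes 9 had a sgNeg H3K27Ac promoter peak (KIT had none), against 79.1% of all coding genes. So had 6 of 6 B cell, 6 of 6 T cell, 4 of 6 erythroid and 4 of 4 epithelial markers. The median percentile was 97.6 for the myeloid and at most 69.7 for the other markers. In sgNpm1A H3K27Ac the order differed, with medians of 8.18 for the myeloid, 9.88 for the erythroid, 48.1 for the B cell, 55.8 for the epithelial and 74.2 for the T cell markers. For sgNeg H3K4me3 the median was 85.2 for the myeloid markers and also for all coding genes. It was 76.4 for the T cell, 40.0 for the epithelial and 0 for the B cell and erythroid markers. A peak list shows neither the edited sequence nor the level of mtNPM1, so the KO itself could not be checked. In bulk cells fewer cells with a mark and less mark per cell cannot be told apart. Neither can be told apart from a difference in enrichment or quality between single libraries, which was not tested. Fold enrichment is scaled within each list, and therefore each peak is given by its percentile among all peaks of its list (100 is the highest fold enrichment) or by its rank. A promoter peak is a peak within 1 kb of an annotated transcript start, and a gene with none has a percentile of 0. The GRCh37 annotation, used for H3K27Ac, gave 146567 starts and the GRCh38 one, used for H3K4me3, 28027. Promoter counts and percentiles of one mark are therefore not directly comparable with those of the other.

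The promoters differ in their sequence, which is shown first because H3K4me3 is usually found at promoters rich in CpG, the dinucleotide CG. The sequences below run from 250 bases before to 50 bases after a transcript start, on the strand of the gene, and are RefSeq sequences of GRCh38.p14, with each CG in capitals. Of the 10 genes, 8 had an entry, and MCL1 and BCL2L2 had none. BCL2 (chr18:63319720-63320019, minus strand) and 3 pro-apoptotic genes, BCL2L11 (chr2:111120664-111120963, plus strand), BAX (chr19:48954625-48954924, plus strand) and PMAIP1 (chr18:59899746-59900045, plus strand), are shown as CpG-rich promoters. BCL2A1 (chr15:79971147-79971446, minus strand) and BBC3 (chr19:47232618-47232917, minus strand) are shown as CpG-poor ones.
BCL2: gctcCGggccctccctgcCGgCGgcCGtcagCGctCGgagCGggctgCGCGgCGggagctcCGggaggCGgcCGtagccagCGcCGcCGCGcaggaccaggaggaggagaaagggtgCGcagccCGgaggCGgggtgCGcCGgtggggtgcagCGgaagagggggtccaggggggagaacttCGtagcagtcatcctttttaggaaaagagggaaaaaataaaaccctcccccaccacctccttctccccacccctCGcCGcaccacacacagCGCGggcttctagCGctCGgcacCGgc
BCL2L11: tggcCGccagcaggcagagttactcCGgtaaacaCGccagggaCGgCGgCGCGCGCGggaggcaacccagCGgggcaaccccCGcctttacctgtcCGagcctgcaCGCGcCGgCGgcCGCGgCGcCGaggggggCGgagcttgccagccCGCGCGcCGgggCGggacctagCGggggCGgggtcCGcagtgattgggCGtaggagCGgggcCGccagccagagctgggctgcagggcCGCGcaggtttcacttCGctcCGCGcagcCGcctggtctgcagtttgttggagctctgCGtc
BAX: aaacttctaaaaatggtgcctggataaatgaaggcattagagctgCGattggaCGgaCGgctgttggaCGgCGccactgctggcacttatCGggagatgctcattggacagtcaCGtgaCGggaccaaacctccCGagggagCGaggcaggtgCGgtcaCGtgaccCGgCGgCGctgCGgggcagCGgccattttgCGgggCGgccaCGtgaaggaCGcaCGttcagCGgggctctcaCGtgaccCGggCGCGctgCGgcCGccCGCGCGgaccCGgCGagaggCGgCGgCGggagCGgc
PMAIP1: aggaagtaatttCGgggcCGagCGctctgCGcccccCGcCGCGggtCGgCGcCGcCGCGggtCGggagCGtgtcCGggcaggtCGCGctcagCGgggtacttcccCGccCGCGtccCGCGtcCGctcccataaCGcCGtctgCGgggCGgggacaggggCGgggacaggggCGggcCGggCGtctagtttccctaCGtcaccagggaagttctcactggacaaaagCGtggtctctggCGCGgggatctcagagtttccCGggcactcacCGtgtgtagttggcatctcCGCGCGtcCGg
BCL2A1: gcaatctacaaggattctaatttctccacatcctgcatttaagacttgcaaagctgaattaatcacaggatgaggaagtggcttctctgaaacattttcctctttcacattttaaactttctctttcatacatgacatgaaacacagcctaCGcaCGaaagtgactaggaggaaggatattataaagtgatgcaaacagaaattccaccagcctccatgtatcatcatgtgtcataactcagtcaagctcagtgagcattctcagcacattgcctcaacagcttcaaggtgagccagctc
BBC3: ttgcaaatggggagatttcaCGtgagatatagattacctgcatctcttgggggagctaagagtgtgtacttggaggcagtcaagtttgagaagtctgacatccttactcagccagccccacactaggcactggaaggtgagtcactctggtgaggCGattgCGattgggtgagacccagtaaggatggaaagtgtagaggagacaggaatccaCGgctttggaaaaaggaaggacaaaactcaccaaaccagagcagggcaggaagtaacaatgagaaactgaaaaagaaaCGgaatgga

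PMAIP1 had 42 CpGs in its 300 bases, BCL2L11 39, BAX 38 and BCL2 31, against a median of 14 over the 35116 promoters of the table. BBC3 had 5 and BCL2A1 2. The ratio of observed to expected CpG was 1.15 in BAX, 1.11 in PMAIP1, 0.94 in BCL2L11 and 0.83 in BCL2, but 0.31 in BBC3, 0.28 in BAK1 and 0.16 in BCL2A1, with a median of 0.579 over all promoters. BCL2L1 had 2 entries, with ratios of 0.57 and 0.99. CpG content therefore did not split the genes by their role, since both groups held CpG-rich and CpG-poor promoters. Motifs were searched on both strands. The E-box CACGTG, part of which is a CG, was found 4 times in the BAX promoter and once in that of BBC3, and 7.26% of all promoters held it. The GC box GGGCGG was found 4 times in PMAIP1, 3 times in BCL2L11, 2 times in BAX and in BAK1 and once in a BCL2L1 promoter, while 45% of all promoters held it. BCL2 held none of the motifs searched, which also included the CCAAT box (34.6% of all promoters), the TATA box TATAAA (11.5%), the ETS site CCGGAAG (10.3%), the STAT site TTCNNNGAA (7.66%) and the AP-1 site TGANTCA (7.71%).

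In sgNeg, all 10 genes had a H3K27Ac promoter peak, against 79.1% of all coding genes, and all 10 stood at or above percentile 95 of the list, as did 45.2% of all coding genes. Among the anti-apoptotic genes MCL1, which encodes a short-lived guardian, had the strongest, a peak of 3848 bp (150549320 to 150553167 on chromosome 1) with a 9.28-fold enrichment and rank 212 of the list. The peak of BCL2L1 (30310437 to 30311800, chromosome 20) was 1364 bp wide at percentile 99.3. BCL2 had a peak of 4888 bp (60985377 to 60990264, chromosome 18) with a 5.52-fold enrichment at percentile 98.8. Enrichment thus differed among the guardians although each percentile was near the top of the list. BCL2L2 reached percentile 98.7 at 23768933 to 23772025 on chromosome 14, a peak that is also at the promoters of HOMEZ and PPP1R3E. Its own downstream start lay under a peak from 23775125 to 23778354 at percentile 97.2. BCL2A1, whose expression is restricted mostly to blood cells, had the lowest value, a 4.196-fold enrichment with rank 10400 at percentile 96.8, in a peak of 1769 bp (80263113 to 80264881, chromosome 15).

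The pro-apoptotic genes stood equally high in sgNeg H3K27Ac. BCL2L11, a broadly acting BH3-only gene, had a peak of 6815 bp (111874793 to 111881607, chromosome 2) at percentile 99.6. BBC3, a target of p53, had the widest, 7546 bp (47728575 to 47736120, chromosome 19), at percentile 99.5. PMAIP1, which acts mainly on MCL1 and BCL2A1, had a peak of 2151 bp at percentile 98.6 (57566246 to 57568396, chromosome 18). The effectors were not set apart from these BH3-only genes, with BAX at percentile 98.9 in a peak of 2333 bp (49457462 to 49459794, chromosome 19) and BAK1 at percentile 97.6 in a peak of 3622 bp (33544486 to 33548107, chromosome 6). The median percentile was 98.8 for the anti-apoptotic and 98.9 for the pro-apoptotic genes, while that of all coding genes, those without a peak included, was 92.4. A peak covered the start of the gene record itself in 9 of the 10 genes, against 48.7% of all coding genes.

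In sgNpm1A, 6 of the 10 genes had a H3K27Ac promoter peak, near the 57% of all coding genes, and 0 stood at or above percentile 95, against 5.59%. Most of these peaks were weak. With a q-value below 0.01 the count was 2 of 10 in sgNpm1A, against 30.5% of all coding genes, and 10 of 10 in sgNeg, against 60.8%. It was 0 of 10 in sgNpm1A with a q-value below 1e-05 (0.903% of all coding genes), a fold enrichment of at least 4 (2.31%) or the 20000 peaks of lowest p-value (7.19%). In sgNeg these filters left 9 of 10, without BCL2A1 (35.6%), 10 of 10 (40.6%) and 10 of 10 (47.9%). BCL2A1, BCL2L11, BAK1 and PMAIP1 had no promoter peak. BCL2 was left with a peak of 554 bp at percentile 3.21 (60988005 to 60988558), whose 2.66-fold enrichment is the lowest in that list. MCL1 had percentile 52.1, BCL2L1 48.6 and BCL2L2 59.9. BAX had percentile 70.8 and BBC3, the highest of all, 81.1 in a peak of 481 bp. The percentile was lower than in sgNeg for 10 of 10 genes, against 82.9% of the genes with a sgNeg peak. Of the latter 66% had a sgNpm1A peak. Among the genes that were at or above percentile 95 in sgNeg, 59.9% had one in sgNpm1A, so that 6 of 10 was the share of such genes in general. A peak lay over the start of the gene record in 0 of 10 genes, against 7.56% of all coding genes.

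The strongest sgNpm1A promoter peak of each of these 6 genes overlapped a sgNeg promoter peak of the same gene. In BCL2, BAX and BBC3 this was the strongest sgNeg one. In MCL1, BCL2L1 and BCL2L2 it was a weaker sgNeg peak at another annotated start. The MCL1 peak, 3.65 to 4.26 kb downstream of the start, met a sgNeg peak at percentile 24.2, and the strongest sgNeg peak of MCL1 was met by a peak of 238 bp at percentile 14.6. The BCL2L1 peak, 4.43 to 4.82 kb downstream, met a sgNeg peak at percentile 67.6, while the sgNeg peak at the main start of BCL2L1, at 99.3, had no counterpart. The BCL2L2 peaks, at 8.73 to 9.04 kb and at 10.0 to 12.1 kb, met the sgNeg peak at percentile 97.2, while the one at 98.7 had no counterpart. When the start of the gene record alone was used, 4 of 10 genes had a sgNpm1A promoter peak and the median of both groups was 0. With all annotated starts 4 of 5 anti-apoptotic and 2 of 5 pro-apoptotic genes had one, and the medians were 48.6 and 0. This difference between the groups therefore rested on peaks at other annotated starts, and no test of it is given, as genes are not replicates.

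**Figure D1:**
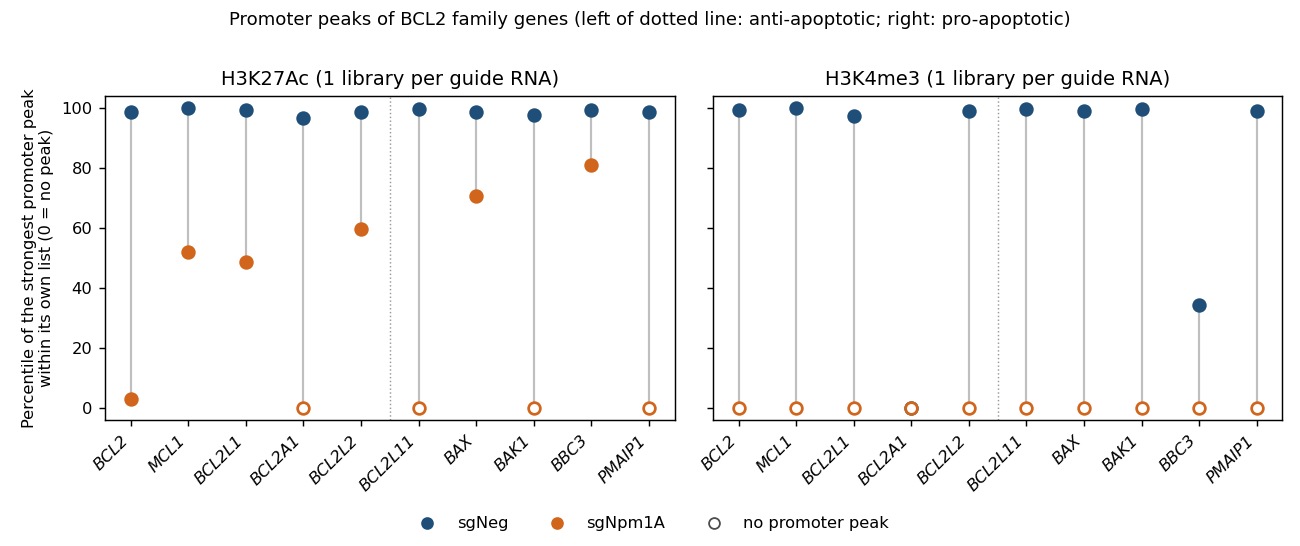
Percentile of the strongest promoter peak of each gene within its own list (y axis, 0 to 100, no unit) for H3K27Ac (left) and H3K4me3 (right), with anti-apoptotic genes to the left of the dotted line and a grey line joining the values of both guide RNAs. In sgNeg all 10 genes are at 96.8 or above for H3K27Ac, in sgNpm1A the highest is BBC3 at 81.1, and for H3K4me3 all 10 sgNpm1A points are open (no peak), as is the sgNeg point of BCL2A1 beneath its sgNpm1A point.

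For H3K4me3, 9 of the 10 genes had a promoter peak in sgNeg, against 68.3% of all coding genes, and 8 were at or above percentile 95, against 42.2%. MCL1 again had the highest value, with a 16.4-fold enrichment, rank 74 of 353628 peaks and 3047 bp (150576546 to 150579592 on chromosome 1). BAK1 followed at percentile 99.8 with a narrow peak of 753 bp (33579316 to 33580068, chromosome 6). BCL2L11 had percentile 99.7 in a peak of 2534 bp (111121039 to 111123572, chromosome 2). Among these 3, then, were a guardian, an effector and a BH3-only activator. BCL2 was at percentile 99.5 with a peak of 2930 bp (63317098 to 63320027, chromosome 18), BCL2L2 at 99.1, PMAIP1 at 99.1, BAX at 98.97 and BCL2L1 at 97.4. BCL2A1, which had the fewest CpGs among the 8 genes with a promoter entry, had no H3K4me3 promoter peak although its H3K27Ac percentile was 96.8, a combination found in 6.1% of the genes at or above H3K27Ac percentile 95.

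By its starts in the GRCh38 annotation, BBC3 differed from the others. Within 1 kb of its starts the sgNeg list held a peak of 192 bp at percentile 34.4, while a peak of 2797 bp at percentile 98.7 lay in the gene body (47228384 to 47231180, chromosome 19), 1.68 to 4.48 kb downstream of the start. The wide H3K27Ac peak of BBC3 spanned from -0.097 to 7.45 kb and so reached over the same distances. BBC3 had 2 annotated starts for H3K4me3 and 4 for H3K27Ac, so the place given to a peak depends on the annotation. In each of the 9 genes the strongest H3K4me3 promoter peak began downstream of the start of the gene record, from 18 bp in MCL1 to 848 bp in BBC3, and 66.6% of all coding genes with a peak there had it wholly downstream. A H3K4me3 peak lay over the start itself in 0 of 10 genes, against 11.4% in sgNeg and 1.76% in sgNpm1A. For sgNeg H3K27Ac, 1 of 10 strongest promoter peaks, that of BCL2L2, lay wholly downstream, against 20.7%, and for sgNpm1A 2 of 4, BAX and BBC3, against 42%. Among promoters of the table with a CpG ratio of at least 0.6, 76.3% had a sgNeg H3K4me3 peak within 1 kb, against 34.5% of those with a lower ratio. BAK1, BBC3 and 1 promoter of BCL2L1 were of the second class and had one.

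In sgNpm1A, none of the 10 genes had a H3K4me3 promoter peak. The share of all coding genes with one was 9.49%, and 0.783% had one at or above percentile 95. Of the genes with a sgNeg peak 11.4% had one, and of those at or above percentile 95 in sgNeg 4.52%, so that 0 of 10 was near this background. The percentile was lower in 9 of 9 genes with a sgNeg peak, against 96.2%. Because H3K4me3 values of both lists gave whole numbers of fragments, it could be asked how far these peaks stood above the calling limit. The sgNeg summits held 78 fragments in MCL1 (95% Poisson interval 61.7 to 97.3), 59 in BAK1 (44.9 to 76.1) and 48 in BCL2 (35.4 to 63.6). The weakest were BCL2L1 with 29 (19.4 to 41.6) and BBC3 with 14 (7.65 to 23.5). At an unchanged fold enrichment and the lower background of the sgNpm1A library, these summits would have held 63.6, 48.1, 39.1, 23.5 and 11.3 fragments, and the lowest listed sgNpm1A peak held 10. The background was 3.81 fragments in sgNeg and 2.93 in sgNpm1A. For 8 of the 9 genes the value at an unchanged fold was at least 23.5. For the promoter peak of BBC3 it was so close to 10 that its loss was not detectable at this depth. The gene body peak of BBC3 was stronger, with a 7.90-fold enrichment against 6.24-fold at the BCL2L1 promoter. It had no counterpart in sgNpm1A. The Poisson intervals cover counting error only.

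**Figure D2:**
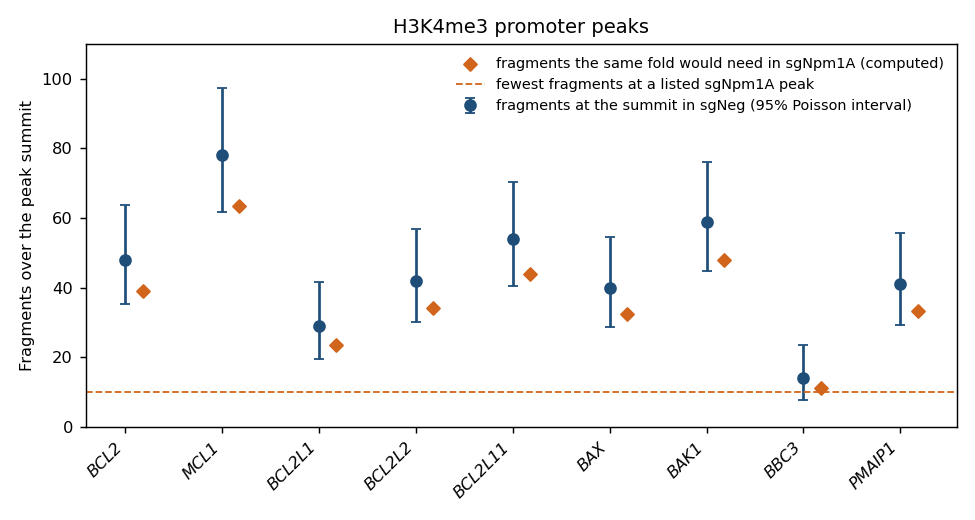
Fragments over the summit of the strongest sgNeg H3K4me3 promoter peak of 9 genes (points with 95% Poisson intervals), the number the same fold enrichment would need in sgNpm1A (diamonds, computed), and the lowest number at any listed sgNpm1A peak (dashed line, 10). All but BBC3, at 11.3, have diamonds at 23.5 or above.

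Peak width varied widely among the genes. A sgNeg H3K4me3 promoter peak of at least 2 kb was found in 3 of the 10 genes, MCL1, BCL2 and BCL2L11, against 2.35% of all coding genes, and of at least 1 kb in 5, which also included BCL2L2 and BAX, against 20.6%. The 3 ranked 127, 142 and 259 of the list by width. The gene body peak of BBC3 ranked 178. These are among the widest peaks of a list whose median width was 192 bp. For H3K27Ac a sgNeg promoter peak of at least 2 kb was found in 8 of 10 genes, against 33%, the others being BCL2L1 and BCL2A1, and of at least 1 kb in 10 of 10, against 55.2%. The median width of the strongest promoter peak was 3093 bp in the anti-apoptotic and 3622 bp in the pro-apoptotic genes for H3K27Ac. It was 2287 bp over 4 and 863 bp over 5 genes for H3K4me3, where BBC3 entered with its promoter peak of 192 bp. In sgNpm1A the strongest H3K27Ac promoter peaks of 6 genes were 395 to 2034 bp wide. A promoter peak of at least 1 kb was found in 3 of 10, BCL2L2, BAX and BBC3, against 24.1%, and of at least 2 kb in 1, BCL2L2, against 10.1%. For H3K4me3 both counts were 0 of 10 in sgNpm1A, against 1.2% and 0.178%.

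The whole windows were then compared. H3K27Ac peaks covered 25.7% of the bases in the 10 windows with sgNeg and 8.51% with sgNpm1A. The latter was 0.332 of the sgNeg length, against 0.742 over all coding gene windows and 0.884 over the whole lists. All coding genes include those with no sgNeg peak, whereas the 10 genes all had a H3K27Ac promoter peak at or above percentile 95. Ratios over genes of like sgNeg percentile were not computed, for the windows or within 1 kb of starts. Coverage was lower in sgNpm1A in 10 of 10 windows, as it was in 63.5% of all. PMAIP1 had the lowest ratio, 0.0796, from 27.2% of its window covered in sgNeg. BCL2L1 had the highest, with 16.4% and 10.3%. MCL1 was the most covered in both, at 46.4% and 22.7%, and BCL2 had 24.7% and 6.07%. The anti-apoptotic windows together had a ratio of 0.341 and the pro-apoptotic ones 0.316. For H3K4me3 the members' windows went from 5.85% to 1.25%, a ratio of 0.213 (all coding genes 0.513), with coverage lower in 10 of 10, against 87.7%. The ratio was 0.257 for the anti-apoptotic and 0.135 for the pro-apoptotic genes. BCL2A1, BCL2L2, BAK1 and PMAIP1 had 0 H3K4me3 peaks left in their windows. How many of all coding gene windows held no sgNpm1A H3K4me3 peak was not computed, so these empty windows have no background beside them.

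Within 1 kb of a start, H3K27Ac coverage of the 10 genes was 66.5% with sgNeg and 8.16% with sgNpm1A, or 0.123 of it, against 0.446 over all coding genes. In the rest of the window it was 22.9% and 8.54%, a ratio of 0.373, against 0.790. The sgNpm1A list thus covered promoters and the rest of these windows to the same extent, whereas in sgNeg promoters were covered more. For H3K4me3 the coverage within 1 kb of a start was 37.6% and 0%, and 4.92% and 1.28% in the rest. Over all coding genes it was 22.6% and 1.91% within 1 kb, and 4.35% and 2.46% in the rest.

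**Figure D3:**
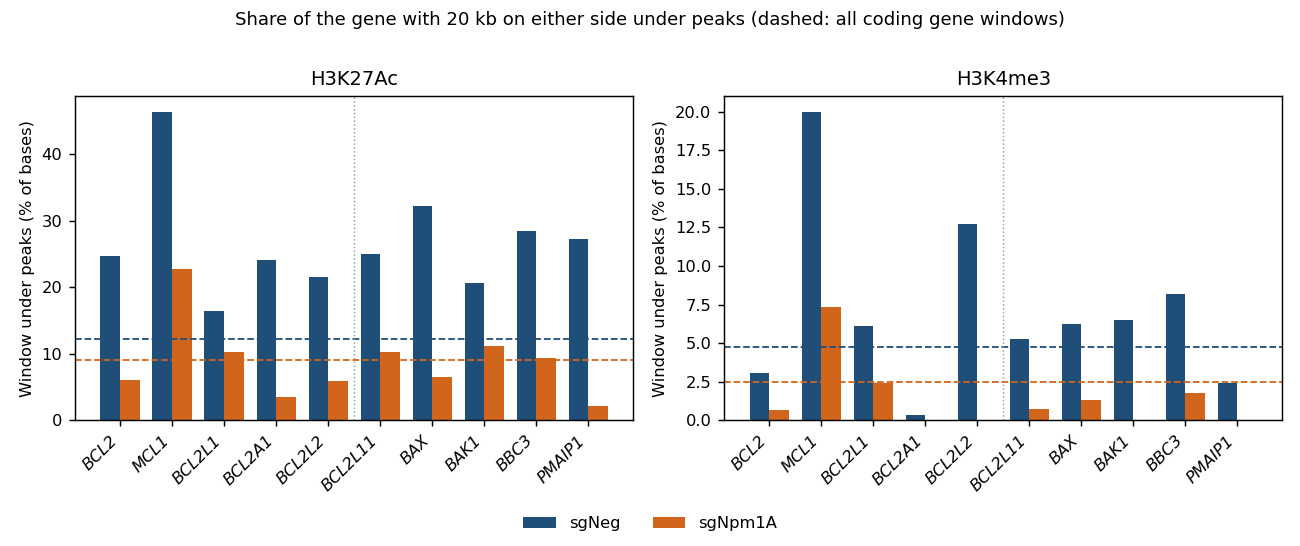
Percent of the bases of each window that lie under peaks in sgNeg (blue) and sgNpm1A (orange), for H3K27Ac (left) and H3K4me3 (right), with dashed lines at the share over all coding gene windows of the same list (12.1% and 9.02% for H3K27Ac, 4.78% and 2.45% for H3K4me3). All 10 sgNeg H3K27Ac bars are above the sgNeg line, and in sgNpm1A 5 of 10 are below the sgNpm1A line.

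BCL2 is the longest of the genes and most of its peaks were intronic. In sgNeg its window held 58 H3K27Ac peaks, 42 of them intronic, and in sgNpm1A 32, of which 21 were intronic. The widest sgNeg peak, 17839 bp (60762504 to 60780342), lay in the downstream flank at percentile 99.2 and ranked 157 by width, and reached past the window. In sgNpm1A it was met within the window by 4 peaks of 153 to 910 bp at percentiles of 12.1 to 73.3. An intronic sgNeg peak at percentile 96.9 (60903230 to 60905520, 2291 bp), 81.8 to 84.1 kb downstream of the start, had no counterpart. Another intronic element behaved otherwise. It had rank 16383 in sgNeg (60865204 to 60867121, 3.73-fold), at percentile 95, and percentile 98.5 in sgNpm1A (60865482 to 60867129, 4.18-fold), where it was the strongest peak of the window, 120.2 to 121.9 kb downstream of the start. For H3K4me3, peaks at 120.2 to 121.1 kb in sgNeg (63198990 to 63199878, percentile 94.4) and 120.3 to 120.8 kb in sgNpm1A (63199289 to 63199804, percentile 92.6) lay at the same distance, and the latter was the strongest H3K4me3 peak that the BCL2 window had left.

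**Figure D4:**
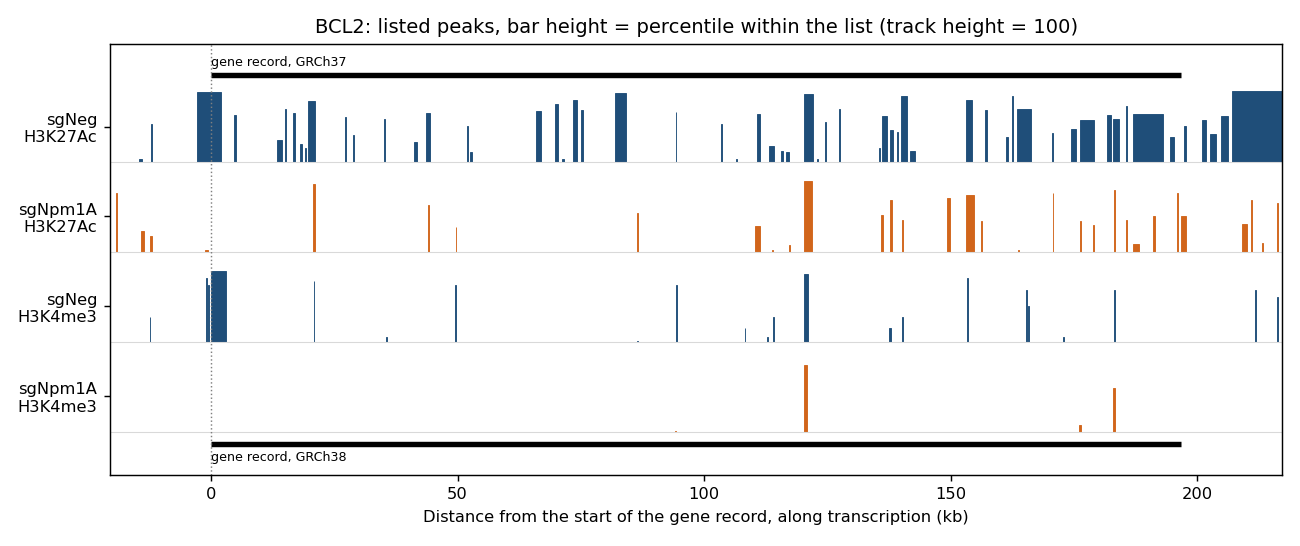
Listed peaks of the BCL2 window by distance from the start of the gene record along transcription (x axis, kb), 1 track per list, where the width of a bar is that of the peak and its height its percentile within the list. The promoter bars at 0 kb in both sgNeg tracks have no counterpart of like height in sgNpm1A, while the bar near 120 kb is present in all 4 tracks.

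A like element was found upstream of BBC3. A sgNeg H3K27Ac peak at -9.75 to -8.70 kb from the start (47744722 to 47745774) had percentile 92.5, and the sgNpm1A peak at -9.80 to -8.79 kb (47744811 to 47745824) had percentile 99.3, rank 2102 and a 4.68-fold enrichment. It was the highest sgNpm1A value in any of the 10 windows. H3K4me3 peaks lay at a like distance, with percentile 95.9 in sgNeg (47241514 to 47242142) and 73.3 in sgNpm1A (47241424 to 47242327), the latter being the last H3K4me3 peak in the BBC3 window. The central 300 bases of the H3K27Ac region shared by both guide RNAs are shown for both elements, as 2 of 7 distal sites with a higher H3K27Ac percentile in sgNpm1A and H3K4me3 peaks of both lists at overlapping distances. They were picked after their values were seen, and the other 5 lay at BCL2 (183.1 to 183.4 kb), MCL1, BCL2L1 (at 2 places) and BAX (-8.32 to -7.33 kb). They are GRCh37 sequences of the plus strand, chr18:60866152-60866451 for BCL2 and chr19:47745143-47745442 for BBC3, with runs of 2 or more CA or TG units in capitals.
BCL2 intronic element: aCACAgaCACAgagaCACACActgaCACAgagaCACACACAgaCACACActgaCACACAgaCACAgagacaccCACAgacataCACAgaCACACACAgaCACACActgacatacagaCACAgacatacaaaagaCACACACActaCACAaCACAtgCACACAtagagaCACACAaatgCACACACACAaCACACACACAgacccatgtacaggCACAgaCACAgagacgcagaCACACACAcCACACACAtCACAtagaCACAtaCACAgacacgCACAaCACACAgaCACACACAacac
BBC3 upstream element: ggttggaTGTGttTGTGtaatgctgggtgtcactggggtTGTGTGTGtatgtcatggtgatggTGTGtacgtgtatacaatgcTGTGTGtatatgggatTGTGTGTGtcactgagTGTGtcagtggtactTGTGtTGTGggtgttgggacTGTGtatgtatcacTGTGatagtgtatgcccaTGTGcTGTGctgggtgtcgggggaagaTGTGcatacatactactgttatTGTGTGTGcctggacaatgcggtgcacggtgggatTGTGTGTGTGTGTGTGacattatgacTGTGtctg

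Both sequences are rich in simple repeats. Runs of CA or TG made up 56.7% of the 300 bases in BCL2 and 31.3% in BBC3, against a median of 5.33% over 14917 sgNeg peak centres on these 2 chromosomes, and 54.9% and 30.3% of the whole shared regions of 1640 and 964 bp. The number of different 4-base words in the 300 bases was 54 in BCL2 and 106 in BBC3, where the median peak centre of both H3K27Ac lists had 152. The other 5 sites had 124 (BAX) to 156 (BCL2) words, so that the repeat-rich sequence was not shared by them. Over the whole lists, the share of peak centres with fewer than 90 such words (a limit chosen after the values were seen) was 0.192% in the lower-ranked part of the sgNpm1A list, up to percentile 50, and 44.9% above percentile 99.5. In sgNeg these shares were 0.221% and 8.6%. Between percentiles 95 and 99, where the BCL2 element stood in sgNpm1A, the share was 4.38% in sgNpm1A and 8.02% in sgNeg, and between 99 and 99.5, the place of the BBC3 element, 17.7% and 7.38%. No sgNpm1A peak of the 10 windows was above percentile 99.5. The part of repeat sequence in the values at both elements was not tested. None of the 19 sgNeg and 10 sgNpm1A promoter peaks of the genes had fewer than 90 words, with lowest counts of 105 and 131. Of the 8 sgNpm1A peaks of the 10 windows above percentile 95, 1 had fewer than 90, the BCL2 element. The others had 106 in BBC3 and between 125 and 161 in MCL1, BCL2L1, BCL2L11 and PMAIP1.

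MCL1 had the highest window coverage left in sgNpm1A for both marks. Downstream of MCL1 a sgNeg H3K27Ac peak of 11710 bp (150521125 to 150532834, percentile 98.1) lay over the neighbouring gene ADAMTSL4 and its promoter, 19.4 to 31.1 kb from the MCL1 start. In sgNpm1A, peaks of 3746 bp (150525246 to 150528991) and 3214 bp (150529982 to 150533195) lay there at percentiles 98.5 and 96.9. H3K4me3 peaks were listed at 19.9 to 20.9 kb and at 22.9 to 24.2 kb in sgNpm1A, both at percentile 96.9, and in sgNeg peaks at these distances reached percentile 98.3. The promoter of MCL1 itself thus lost its H3K4me3 peak, whereas the body of ADAMTSL4 had one in both lists. The gene record of MCL1 is longer in the GRCh37 annotation (150533371 to 150552214) than in the GRCh38 one (150574558 to 150579610), and the windows of the marks differ accordingly.

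**Figure D5:**
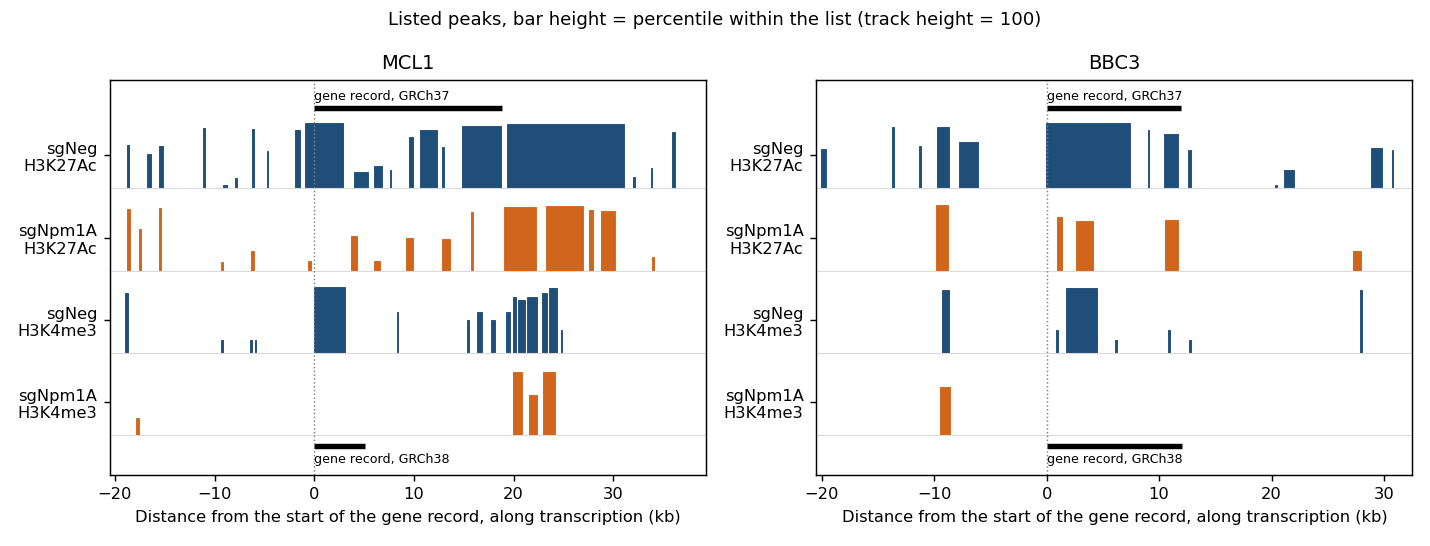
Listed peaks at MCL1 (left) and BBC3 (right) by distance from the start of the gene record along transcription (x axis, kb), 1 track per list, with bar height as percentile within the list. At MCL1 the sgNpm1A bars 19.02 to 26.97 kb downstream reach percentile 98.5 for H3K27Ac and 96.9 for H3K4me3, with a lower H3K4me3 bar of 60.5 at 21.5 to 22.4 kb, and at BBC3 the bar near 9 kb upstream is present in all 4 tracks while the wide bars downstream of the start are replaced by small ones or none.

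The other genes had distal peaks that differed between guide RNAs. BCL2L1 had a sgNeg H3K27Ac peak at the promoter of TPX2, at -16.0 to -14.6 kb and percentile 99.2 (30326433 to 30327751), and intronic ones at percentiles 97.8 and 95.2, and a sgNeg H3K4me3 peak at -16.4 to -15.4 kb and percentile 96.8. Neither upstream peak had a counterpart in sgNpm1A. In sgNpm1A the highest BCL2L1 peak was a short intronic one of 191 bp at percentile 95.6. BCL2A1 had an upstream sgNeg peak of 3065 bp at percentile 96.7, at -9.09 to -6.03 kb, with no counterpart. BCL2L2 likewise had flanking sgNeg peaks at the promoters of PABPN1 (23789600 to 23792123) and HOMEZ, at percentiles 99.4 and 97.2. TPX2, PABPN1 and HOMEZ are neighbouring genes, not members of the family. BCL2L11 had 27 peaks in sgNeg and 16 in sgNpm1A, the highest of the latter an intronic peak of 237 bp at percentile 98.1 (111898539 to 111898775) with no sgNeg counterpart. PMAIP1 had 7 peaks in sgNeg and 2 in sgNpm1A, 1 of the latter 19.3 to 20.0 kb downstream at percentile 95.5 (57586480 to 57587205), where the overlapping sgNeg peak was at 30.0. BAX had a sgNeg peak of 9787 bp and rank 3143 from 5.87 to 15.7 kb, over the promoters of FTL and GYS1, and in sgNpm1A its highest was an upstream peak at 87.5.

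In all, 73 of 185 sgNeg H3K27Ac peaks in the windows shared 1 bp or more with some peak of the KO list, or 39.5%, against 50.7% of the whole list. Seen from sgNpm1A, 85 of 117 overlapped a sgNeg peak, or 72.6%, against 51.4%. For H3K4me3 the shares were 14.7% (16 of 109), against 22.6%, and 73.7% (14 of 19), against 61.2%. Of the 73 overlapping sgNeg H3K27Ac peaks, 29 met a sgNpm1A peak of higher percentile, 39.7% against 57.1% in the whole list. For H3K4me3 it was 6 of 16, 37.5% against 48.6%. The windows of these genes thus held smaller shares of sgNeg peaks with a counterpart, and of those with a higher-ranked one, than the lists as a whole. Their sgNpm1A peaks, in turn, had a sgNeg counterpart more often than the lists as a whole. However, sgNeg H3K27Ac peaks covered 25.7% of the bases in these windows, against 12.1% over all coding gene windows. The part of this coverage in the overlaps was not tested. Windows of other genes were not compared, and a sgNeg peak near the top of its list can hardly meet a higher-ranked one.

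H3K27Ac peaks up to 12.5 kb apart were also joined into regions, ranked by the sum of width times fold enrichment. By this measure 4 of the 10 gene bodies met a large region in sgNeg, against 32.5% of all coding genes. Large regions are those past the point where the ranked curve turns steep. MCL1 had rank 101 of 49246 regions, BAK1 178, BCL2 309 and BBC3 508, where 1142 were large. In sgNpm1A MCL1 alone met one, at rank 248 of 52919 with 989 large, against 22.2% of all coding genes, and BCL2 fell to rank 2482. BAK1 went to rank 3232 and BBC3 to 5781, and the bodies of BCL2A1 and PMAIP1 met no sgNpm1A region. These regions are long and hold other genes, and that of BCL2 in sgNeg (60640829 to 60921499) covers a part of the gene body without the promoter. That of MCL1 was 651.4 kb in sgNeg, of which 32.5% was under peaks. With peaks of a q-value below 1e-05 no gene of the 10 met a large region in either list. The share of all coding genes under this filter was not computed, so this count has no background beside it.

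Other genes of the death pathways were compared in the same way. Of all coding genes, 79.1% had a H3K27Ac promoter peak in sgNeg and 57% in sgNpm1A. A lower share in sgNpm1A was thus not particular to the lists below. Of 11 further BCL2 family genes, 9 had a sgNeg H3K27Ac promoter peak and 6 a sgNpm1A one. Their median percentile was 91.4 and 3.21. BCL2L13 (99.7) and BAD (99.5) were highest in sgNeg, and BMF (95.3) and BCL2L14 (94.4) in sgNpm1A, in peaks of 145 bp and 1801 bp. Of 12 genes of cytochrome c release, caspase activation and its inhibitors, 11 had a peak in sgNeg and 4 in sgNpm1A, with medians of 98.5 and 0. BIRC5 (survivin, 99.9) and APAF1, the scaffold of the apoptosome (99.8), led in sgNeg and had none in sgNpm1A, where CASP6 (93.2) and DIABLO (71.5) were highest. The sgNpm1A peak of DIABLO, 140 bp wide, lay at another annotated start than its strongest sgNeg peak. Of 7 genes of death receptor signalling, 7 and 4 had one, with medians of 99.3 and 30.9. CFLAR, an inhibitor of CASP8, had percentile 99.96 in sgNeg and no sgNpm1A peak, and the receptor gene TNFRSF10B had 99.5 and 95.6. TNFRSF10A was highest in sgNpm1A, at 99.1. That peak (23054309 to 23054979, chromosome 8) lay at another annotated start than its strongest sgNeg peak (23081419 to 23083478, percentile 96.4). For H3K4me3 these lists had 9 of 11, 9 of 12 and 7 of 7 promoter peaks in sgNeg and 0 in sgNpm1A. Over all coding genes the shares were 68.3% and 9.49%. Of all genes with a sgNeg peak 11.4% had one in sgNpm1A, so few were to be found in lists of this size.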

How the data were processed

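ChIPmentation (chromatin immunoprecipitation with Tn5 tagmentation) was done in OCI-AML3 cells. Sample titles gave the groups. The submitters' processing notes name bcl2fastq 2.17, Trimmomatic 0.33, Bowtie 1.1.2, MACS2 2.1.0 and deepTools. The authors listed peaks per library. Calling limits, use of inputs and a Tn5 shift were not stated. The deposited fold enrichment is a ratio to the expected pileup, read at each summit (H3K4me3) or as a regional mean (H3K27Ac). Also deposited were a p-value and a q-value as −log10, and a score that rescales the q-value and was not used. The deposited summit position was not used.

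The notes name hg38. H3K27Ac peaks on chromosome 1 ended at 249218478 and 249212461, past its hg38 end, and these lists were read as GRCh37. H3K4me3 peaks on chromosome 17 ended at 83201880 and 83201881, past its hg19 end, and were read as GRCh38. No coordinates were converted. GENCODE version 44 on GRCh37 and the RefSeq GRCh38.p14 gene and promoter tables (19671 of 20033 coding genes with a strand) gave starts.

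Read totals are not in the lists. H3K4me3 fold values were solved as (fragments + 1)/(background + 1) with 1 background per list, which gave whole fragments (within 0.02) for 100% of peaks. The expected pileup behind these H3K4me3 values therefore did not vary from place to place within a list. Python 3.11.15, pandas 2.3.3, numpy 2.4.6 and scipy 1.17.1 were used, and the solution and overlaps were tested on simulated data. Percentiles are over all peaks of a list on chromosomes 1 to 22, X and Y. All 10 genes are named, and of each pathway list the 2 highest in sgNeg and in sgNpm1A H3K27Ac. The genes and lists were chosen with earlier results of these data known, so no p-value is given.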

Additional observations from a re-analysis of the deposited data

How the results depend on the processing

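Of 86 alternative values, 64 stayed within the limits set for no change, 21 moved and 1 reversed. Those that stayed include the sgNpm1A H3K4me3 promoter counts and group differences. Both were 0 at the main setting, and filters that only remove peaks could not change them. The sgNeg H3K27Ac median of the anti-apoptotic genes minus that of the pro-apoptotic genes was -0.0552 percentile points and became 0.0345 with the −log10 p-value and -0.498 with peak width in place of fold enrichment, all differences under 1 point. For sgNeg H3K4me3 it was 0.0848, and 2.37 with width. In sgNpm1A H3K27Ac it was 48.6, and became 14.6 with a promoter of 500 bp on either side, 79.6 with 2 kb, and 0 with the gene record start alone, a q-value below 0.01, a q-value below 1e-05, a fold enrichment of at least 4, or the 20000 peaks of lowest p-value. The count of 6 sgNpm1A H3K27Ac promoter peaks fell to 2 with a q-value below 0.01 and to 0 with each stricter filter. The window coverage ratio of 0.332 for H3K27Ac was 0.0130 with a q-value below 1e-05, 0.0768 with a fold enrichment of at least 4 and 0.126 with 20000 peaks, and that of 0.213 for H3K4me3 was 0.0984, 0.140 and 0.126. Stitching within 5 kb and stitching of peaks with a q-value below 1e-05 were chosen after seeing the data. The latter took the counts of 4 and 1 genes in large regions to 0. For both settings the share of all coding genes was not computed. The fewer peaks left by each filter are part of its construction, and other causes were not tested. No paired analysis was possible because each group had 1 library and no result came from a test. The number of fragments per library limits all values, and a promoter with no listed peak may hold signal below the calling limit.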
